A study of Mus musculus with 8 samples.

Results

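The growth hormone and IGF1 axis of the liver was followed through 7 genes in the livers of control and Smo-KO mice: the receptor gene Ghr, the signal transducer Stat5b, the feedback inhibitor Socs2, the hormone Igf1, its carrier subunit Igfals, and the binding proteins Igfbp2 and Igfbp4. The genes were picked by symbol. All 7 were found among the 25239 gene symbols counted in each liver, and all 7 had enough reads to enter the test of 12977 genes. Bulk RNA-Seq had been performed on liver tissue of 4 control and 4 Smo-KO mice. All were adult male mice homozygous for a floxed Smo allele (Smo tm2Amc/J) on a C57Bl6/J background, and all were fed the CDA-HFD, a choline-deficient, amino acid-defined diet with 60% of its calories from fat, for 6 weeks. During the last 1 week, control mice carried AAV8-TBG-Luciferase and Smo-KO mice carried AAV8-TBG-Cre Recombinase, so both groups had the floxed allele, the diet and a viral vector, although the labels call the control genotype WT. The TBG promoter is active in hepatocytes, so other liver cells are expected to keep Smo. Reads came from whole liver, where fewer cells of a type and less RNA per cell cannot be told apart.

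Growth hormone is released by the pituitary, in male rodents in strong pulses, and binds its receptor on hepatocytes. The receptor-bound kinase Jak2 then phosphorylates Stat5b, which enters the nucleus and switches on Igf1, Igfals and the fast inhibitors Socs2 and Cish. Most circulating IGF1 is made by the liver, and it travels in a complex with an IGF-binding protein and the acid-labile subunit that Igfals encodes. Binding proteins such as Igfbp2 and Igfbp4 limit how much IGF1 reaches its own receptor, of which hepatocytes carry little.

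Between 9177277 and 9999732 reads per liver lay on genes in control mice and between 8203299 and 9543675 in Smo-KO mice. Levels are given as CPM, each liver's counts scaled to one common library size after TMM normalization, and 1 read was worth between 0.0988 and 0.122 CPM. Smo itself, the check of the labels, was 8.16, 8.48, 8.74 and 8.20 CPM in the control mice, here and throughout in the order of their numbers, and 5.66, 3.92, 4.26 and 4.37 CPM in the Smo-KO mice. The groups did not overlap, and the log2 fold change was -0.88 (standard error 0.16, edgeR adjusted p = 0.0957, DESeq2 adjusted p = 0.00646). The hepatocyte markers were present in every liver. Their most abundant gene, Alb, which encodes albumin, lay between 14246 and 17660.5 CPM, and the summed level of 9 markers was 31019 ± 1861 CPM in control and 29622 ± 918 CPM in Smo-KO livers (SD, n = 4 each). An exact permutation test of the sums, of which Alb was the main part, gave a two-sided p of 0.257. Of the 9 markers 6 had a lower mean in Smo-KO livers, and 1 had an unadjusted p under 0.05, against 13.8% of all genes tested. It was Cps1, a urea cycle enzyme gene named after its values were seen, at 917 ± 50.6 and 732 ± 93.9 CPM with no overlap (log2 fold change -0.33, standard error 0.10, edgeR adjusted p = 0.218).

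All 7 genes of the axis had a higher mean in Smo-KO than in control livers, but the differences were of unequal size. Socs2, Igf1 and Igfbp2 had log2 fold changes of 1.78, 0.47 and 0.41, while Ghr, Stat5b, Igfals and Igfbp4 lay between 0.03 and 0.09. After adjustment over all genes none of the 7 passed 0.05 in the quasi-likelihood test of edgeR, where 0 of 12977 genes did (0%). With the replicate number as a block the count over all genes was 8 (0.0616%), again with 0 of the 7. With DESeq2 that count was 167 (1.29%), with 0 of the 7 passing and no p-value for Socs2. At an unadjusted p under 0.05, 3 of the 7 passed, all higher, against 6.7% of all genes tested in that direction. Their number was 1 without Smo-KO mouse 3 and 1 without control mouse 2. In none of the 7 did the 4 values of 1 group lie wholly above those of the other, as they did in 7.37% of all genes tested. The median log2 fold change was 0.09 over the 7 genes and -0.00084 over all genes tested.

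**Figure D1:**
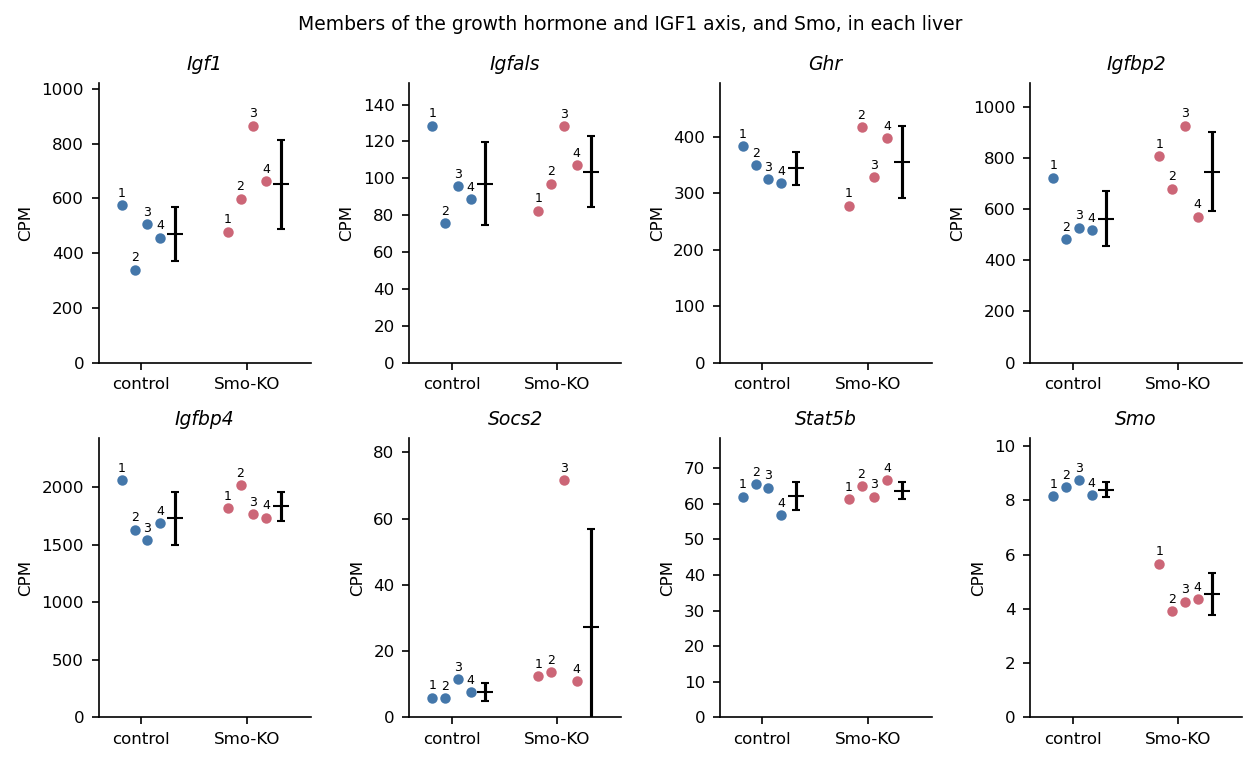
Level of the 7 genes of the axis and of Smo in each liver, in CPM (vertical axis, from 0), for control (blue) and Smo-KO (red) livers, with mouse numbers beside the points and the mean ± SD (n = 4) beside each group. Smo-KO mouse 3 stands far above all others in Socs2 (71.5 CPM), where the SD bar runs below 0 and is cut there, and the groups overlap in each gene of the axis but not in Smo.

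At the entry of the pathway, Ghr, which encodes the growth hormone receptor (GRCm38, chr15:3317760-3583492, minus strand), was 384, 349, 325 and 317 CPM in control mice 1 to 4. In Smo-KO mice 1 to 4 it was 278, 417, 328 and 398 CPM. Smo-KO mice 1 and 2 were the lowest and the highest of all 8 livers, so the control range lay inside that of the Smo-KO mice. Its log2 fold change was 0.05 (standard error 0.12, edgeR adjusted p = 0.9), and it turned to -0.038 without Smo-KO mouse 2 and to -0.011 without Smo-KO mouse 4.

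Stat5b (GRCm38, chr11:100780731-100850724, minus strand), the main transducer of the growth hormone signal in liver, was the steadiest of the 7. It was 62.0, 65.6, 64.5 and 56.8 CPM in control mice and 61.4, 64.9, 62.0 and 66.5 CPM in Smo-KO mice, with means of 62.2 ± 3.91 and 63.7 ± 2.45 CPM (SD, n = 4 each). Its log2 fold change was 0.03 (standard error 0.08, edgeR adjusted p = 0.891) and was -0.0017 without control mouse 4. Its close paralog Stat5a, which lies 8626 bases away and was named after its values were seen, was 22.4 ± 4.22 CPM in control and 24.6 ± 1.53 CPM in Smo-KO livers (log2 fold change 0.14, standard error 0.13). Reads shared by the 2 genes could be split or dropped by the authors' counting, so both levels are uncertain. Exons of Stat5a also overlap those of Stat3 on the other strand.

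The mRNA of Stat5b says nothing of its phosphorylation, which was not measured. The transcripts that the active protein is known to induce were more variable than Stat5b itself. Socs2 (GRCm38, chr10:95385362-95417180, minus strand) encodes an inhibitor that binds the activated receptor and ends the signal. It was 6.00, 5.76, 11.6 and 7.71 CPM in control mice 1 to 4, from 53, 55, 117 and 78 reads. In Smo-KO mice 1 to 4 it was 12.4, 13.7, 71.5 and 11.0 CPM, from 120, 126, 587 and 103 reads. Smo-KO mouse 3 was thus far above all other livers, and of the rest only Smo-KO mouse 4 fell below the highest control mouse. The mean was 349% of the control mean, with a log2 fold change of 1.78 (standard error 0.56, unadjusted p = 0.00704, adjusted p = 0.215 in edgeR's test). An exact permutation test of the CPM gave a two-sided p of 0.0571. Without Smo-KO mouse 3 the log2 fold change was 0.66 (adjusted p = 0.395). DESeq2 gave no p-value for Socs2, which was 1 of 3 genes so treated.

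Cish, the other fast inhibitor induced by Stat5, belongs to the list of 15 genes of growth hormone receptor signalling. It was 12.8, 22.1, 24.1 and 9.88 CPM in the control mice and 11.0, 36.0, 70.04 and 46.9 CPM in the Smo-KO mice. Smo-KO mice 2 to 4 exceeded all controls, and Smo-KO mouse 1 lay near the low end of the control range. Cish had a log2 fold change of 1.24 (standard error 0.42, unadjusted p = 0.0117, adjusted p = 0.241 in edgeR's test). Without Smo-KO mouse 1 it was 1.57 with an adjusted p of 0.0423, and without Smo-KO mouse 3 it was 0.86 with an adjusted p of 0.526. Exons of 2 predicted genes on the other strand overlap Cish, and whether reads were counted by strand is not given in the sources used here.

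Onecut1, a liver transcription factor that growth hormone is known to induce, had few reads, from 13 to 39 in control mice and from 24 to 113 in Smo-KO mice. It was 1.47, 1.36, 3.87 and 1.28 CPM in control mice and 2.47, 7.08, 13.8 and 4.37 CPM in Smo-KO mice. Smo-KO mice 2 to 4 lay above all control mice, and control mouse 3 lay above Smo-KO mouse 1. For Onecut1 the log2 fold change was 1.76 (standard error 0.50, unadjusted p = 0.00383, edgeR adjusted p = 0.176), and without Smo-KO mouse 3 it was 1.19. Bcl6, a repressor that growth hormone is known to lower and that competes with Stat5 at its sites, was named after its values were seen. It was 74.1, 49.5, 17.0 and 54.1 CPM in control mice and 63.5, 17.3, 16.9 and 24.4 CPM in Smo-KO mice (log2 fold change -0.66, standard error 0.44, unadjusted p = 0.156, edgeR adjusted p = 0.528). With the replicate block of edgeR's fit the log2 fold change was -0.73, with an unadjusted p of 0.0077 and an adjusted p of 0.173. With each mouse left out in turn the log2 fold change of Bcl6 lay between -1.30 and -0.39, with an edgeR adjusted p of at least 0.116. The 3 Smo-KO mice in which Cish was high had low Bcl6, and so did control mouse 3, which had the highest Socs2, Cish and Onecut1 of the control mice.

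**Figure D2:**
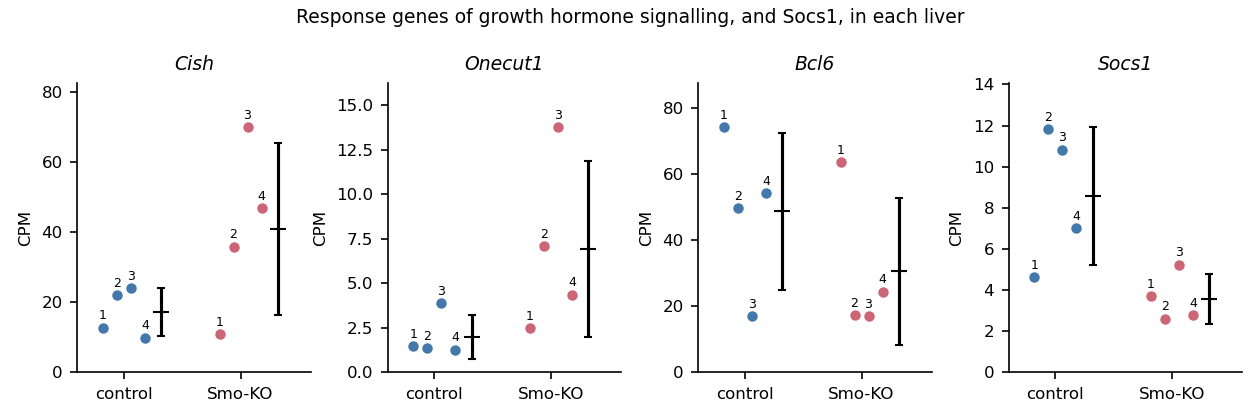
Level of Cish, Onecut1, Bcl6 and Socs1 in each liver, in CPM (vertical axis, from 0), with mouse numbers beside the points and the mean ± SD (n = 4) beside each group. In Cish and Onecut1, Smo-KO mouse 3 is the highest liver (70.04 and 13.8 CPM). Bcl6 is at 63.5 CPM in Smo-KO mouse 1 and between 16.9 and 24.4 CPM in the other Smo-KO mice.

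Of the 15 genes of growth hormone receptor signalling, all were tested, 5 had a higher and 10 a lower mean in Smo-KO livers, and the median log2 fold change was -0.05. At an unadjusted p under 0.05, 1 was higher (Cish) and 5 were lower, against 6.7% and 7.15% of all genes tested. Among the lower genes were Socs1, the phosphatase gene Ptpn1 and, named after their values were seen, Ptpn2 and the prolactin receptor gene Prlr. After adjustment 0 of the 15 passed, and without Smo-KO mouse 3 the number at an unadjusted p under 0.05 fell to 3. The kinase gene Jak2, also named after its values were seen, was 28.6 ± 3.53 CPM in control and 27.7 ± 2.24 CPM in Smo-KO livers (SD, n = 4 each). Ptpn1, which dephosphorylates Jak2, was 75.6 ± 2.60 and 64.9 ± 5.82 CPM (log2 fold change -0.22, standard error 0.09), and its groups did not overlap.

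Socs1, which encodes an inhibitor of cytokine receptors that interferon induces, was 4.64, 11.8, 10.8 and 7.01 CPM in the control mice and 3.71, 2.61, 5.24 and 2.77 CPM in the Smo-KO mice. Control mice 2 to 4 lay above every Smo-KO mouse, and control mouse 1 lay below Smo-KO mouse 3. Its log2 fold change was -1.27 (standard error 0.30, edgeR adjusted p = 0.14, DESeq2 adjusted p = 0.00964). Markers of T and NK lymphocytes moved the same way. Their summed level over 6 genes was 50.2, 53.8, 43.5 and 59.8 CPM in control mice and 23.3, 20.05, 32.9 and 34.0 CPM in Smo-KO mice (exact permutation test, two-sided p = 0.0286), and 5 of the 5 tested markers were lower at an unadjusted p under 0.05, against 7.15% of all genes tested. The most abundant was Nkg7, at 14.4 ± 3.09 and 7.58 ± 2.44 CPM. Their part in the levels of Socs1, Cish and Socs2 was not tested.

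Igf1 (GRCm38, chr10:87858265-87937042, plus strand) encodes the hormone through which growth hormone drives body growth. It was 575, 339, 506 and 456 CPM in the control mice and 478, 599.7, 866 and 664 CPM in the Smo-KO mice. Smo-KO mice 2 to 4 exceeded every control mouse, while Smo-KO mouse 1 lay within the control range. The means were 469 ± 99.2 and 652 ± 162 CPM (SD, n = 4 each), and the Smo-KO mean was 139% of the control mean. Igf1 had a log2 fold change of 0.47 (standard error 0.18, unadjusted p = 0.0208, adjusted p = 0.281 in edgeR's test), and the exact permutation test of the CPM gave a two-sided p of 0.114. With each mouse left out in turn it stayed between 0.31 and 0.60, lowest without Smo-KO mouse 3.

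Igfals (GRCm38, chr17:24865997-24882010, plus strand) was 129, 75.8, 95.6 and 88.6 CPM in control mice and 82.4, 97.2, 128 and 107 CPM in Smo-KO mice. Control mouse 1 and Smo-KO mouse 3 were alike at the top, and the ranges of the groups coincided almost fully. Its log2 fold change was 0.09 (standard error 0.16, edgeR adjusted p = 0.834), and it turned to -0.023 without Smo-KO mouse 3 and to -0.0040 without control mouse 2. From mouse to mouse Igfals nevertheless went with Igf1. Over the 8 livers the 2 genes had a Pearson r of 0.85 and a Spearman rho of 0.83 in log2 CPM, and r was 0.95 after the group means were removed and 0.65 without the 2 livers farthest from the median of Igf1. These correlations describe 8 livers that share their scaling, and no test was made.

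The sequences before the starts of the 7 genes were searched for TTCNNNGAA, the core that Stat5 is known to bind, which reads the same on both strands. RefSeq promoters of assembly GRCm38.p6, from 250 bases before to 50 bases after each start, were found for 6 of the 7 genes, and Socs2 was not matched. Of the 11 promoters of these 6 genes, 2 held the letters, and both belong to Igfals. Of all 32851 promoters 8.3% held them. The Igfals stretches lie in an intron of the longest annotated transcripts, at chr17:24877594-24877636 and chr17:24878103-24878201, and the letters begin 236 and 58 bases before a RefSeq start. The stretch of Cish, at chr9:107296654-107296683, holds 2 matches, which begin at bases 1 and 12 of the RefSeq transcript, in an annotated exon. The Igfals stretches are shown because Igfals was the one gene with a match among the 6 that had a promoter. Cish was the only response gene looked up beside the 7, so its 2 matches do not set it apart from other response genes. Capitals mark the matched letters, and all are written 5′ to 3′ on the plus strand.
Igfals, first start: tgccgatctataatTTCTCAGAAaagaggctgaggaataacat
Igfals, second start: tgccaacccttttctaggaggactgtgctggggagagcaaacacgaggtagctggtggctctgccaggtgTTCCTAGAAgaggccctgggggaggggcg
Cish: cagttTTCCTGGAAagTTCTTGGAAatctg
A match is not a measured binding site. Igfals and Cish differed in their values, with log2 fold changes of 0.09 and 1.24, and Igf1, with a log2 fold change of 0.47, had no match in this window.

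Igfbp2 (GRCm38, chr1:72824503-72852474, plus strand) encodes a binding protein of the circulation that hepatocytes make in quantity. It was 723, 483, 527 and 518 CPM in control mice and 807, 679.5, 926 and 570.3 CPM in Smo-KO mice. All 4 Smo-KO mice exceeded control mice 2 to 4, and control mouse 1 lay above Smo-KO mice 2 and 4. The Smo-KO mean was 133% of the control mean. Igfbp2 had a log2 fold change of 0.41 (standard error 0.16, unadjusted p = 0.0228, adjusted p = 0.284 in edgeR's test), the exact permutation test of the CPM gave a two-sided p of 0.0857, and the range with each mouse left out was from 0.29 to 0.55.

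Igfbp4 (GRCm38, chr11:99041244-99054392, plus strand), which encodes an inhibitory binding protein, was the most counted gene of the 7. It was 2061, 1633, 1539.7 and 1691 CPM in control mice and 1819.8, 2019, 1768 and 1738 CPM in Smo-KO mice. Control mouse 1 was the highest liver and the other 3 control mice were the lowest. The log2 fold change was 0.09 (standard error 0.11, edgeR adjusted p = 0.758).

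Other IGF-binding proteins and the enzymes that release IGF1 from them formed a list of 11 genes, of which 7 were tested. Pappa, Pappa2, Stc1 and Stc2, the proteases and their inhibitors, had at most 8 reads in any liver. Of the 7 tested, 1 had a higher and 6 a lower mean in Smo-KO livers (median log2 fold change -0.41), and 0 passed an unadjusted p of 0.05 in edgeR's test, against 13.8% of all genes tested, with 1 in DESeq2's. With each mouse left out in turn the number was 3 without Smo-KO mouse 1, 2 without control mouse 3 or 4, 1 without Smo-KO mouse 3 and 0 otherwise. Igfbp1, the binding protein that fasting raises and insulin lowers, was 104, 95.6, 103 and 55.5 CPM in control and 119, 69.2, 27.0 and 45.9 CPM in Smo-KO mice. Smo-KO mouse 1 was the highest and Smo-KO mouse 3, with the most Igf1, the lowest liver. Its log2 fold change was -0.45 (standard error 0.34, unadjusted p = 0.211 in edgeR's test). Without Smo-KO mouse 1 it was -0.91 (unadjusted p = 0.00705, adjusted p = 0.139 in edgeR's test). Without Smo-KO mouse 3 it was -0.196 (unadjusted p = 0.495, adjusted p = 0.87 in edgeR's test), so its size depended on both mice. Igfbp3, the main partner of IGF1 in its complex with Igfals and in liver a product of nonparenchymal cells, was 66.3 ± 14.1 CPM in control and 49.8 ± 25.9 CPM in Smo-KO livers (log2 fold change -0.41, standard error 0.30). Igfbp5 was 7.02, 6.39, 2.08 and 2.27 CPM and Igfbp6 4.53, 4.71, 1.09 and 0.988 CPM in control mice 1 to 4, so that 2 control mice were high in both. All Smo-KO mice lay between 2.16 and 3.41 CPM in Igfbp5 and between 0.927 and 1.83 CPM in Igfbp6. The summed stellate cell and fibroblast markers, 8 genes led by Col3a1, were 1049 ± 70.5 CPM in control and 973 ± 142 CPM in Smo-KO livers (exact permutation test, two-sided p = 0.429). Of these, 4 had a lower mean in Smo-KO livers, and 1 had an unadjusted p under 0.05, against 13.8% of all genes tested. It was the collagen gene Col1a1, named after its values were seen (190.4 ± 15.5 and 148 ± 28.6 CPM, log2 fold change -0.36, standard error 0.13, edgeR adjusted p = 0.248). The part of these cells in the levels of the binding proteins was not tested.

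Levels of different genes were compared per kb of annotated exon. In control livers Igfbp4 was 392 ± 51.8 and Igfbp2 305 ± 58.7 CPM per kb, and their values overlapped. Igf1, at 47.4 ± 10.01, Ghr, at 38.0 ± 3.29, and Igfals, at 30.7 ± 7.10 CPM per kb, formed a second level in which neighbours overlapped. Stat5b, at 11.2 ± 0.705, and Socs2, at 0.815 ± 0.284 CPM per kb (SD, n = 4 for each gene), lay below and apart. The receptor gene Igf1r was 0.227 ± 0.0807 CPM per kb, below each of the 7. These levels rest on the merged exons of GENCODE M21, and a gene whose long end regions are little used in liver is understated.

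**Figure D3:**
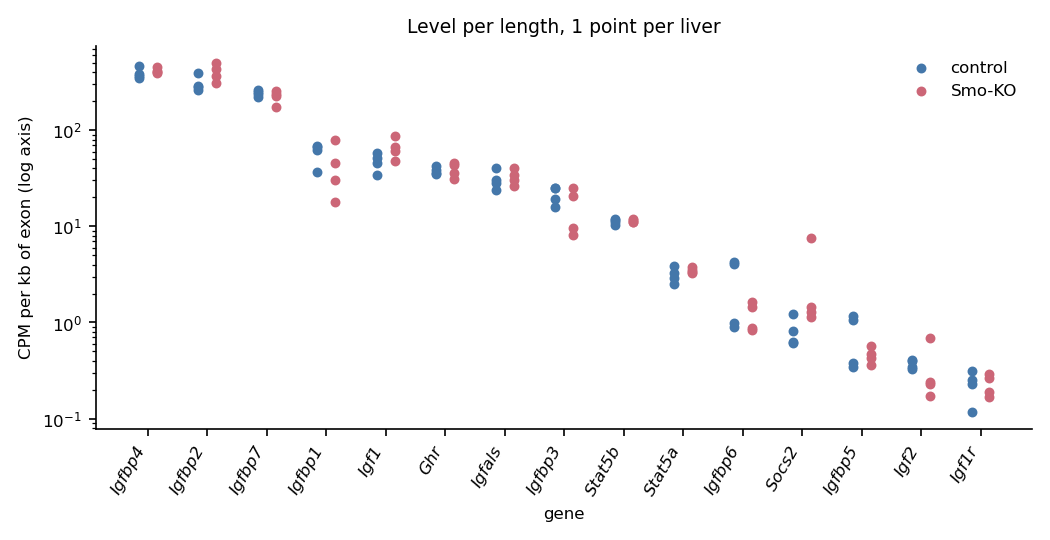
Level of genes of the axis, other IGF-binding proteins, Igf1r, Igf2 and Stat5a in each liver, in CPM per kb of annotated exon on a log axis, 1 point per liver for control (blue) and Smo-KO (red). Igfbp4 and Igfbp2 lie above all other members, and Socs2 of Smo-KO mouse 3 stands apart from its group.

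Receptors of IGFs and insulin and their adaptors formed a list of 10 genes, of which all were tested. At an unadjusted p under 0.05, 1 was higher and 2 were lower in Smo-KO livers, against 6.7% and 7.15% of all genes tested, and 0 passed after adjustment. The sum of 3 dropped to 1 without control mouse 2 or 3 or without Smo-KO mouse 3 or 4. Igf1r, named after its values were seen, was 3.82 ± 1.36 CPM in control and 3.81 ± 0.953 CPM in Smo-KO livers. Insr, the insulin receptor gene, was 86.9, 87.9, 80.4 and 99.1 CPM in control and 93.1, 113, 107 and 118 CPM in Smo-KO mice (log2 fold change 0.28, standard error 0.10, edgeR adjusted p = 0.247). Smo-KO mice 2 to 4 exceeded all control mice. Igf2r, a receptor that clears IGF2, had a log2 fold change of -0.23 (standard error 0.09), and the adaptor gene Shc1 one of -0.25 (standard error 0.10). Grb14, which encodes an inhibitor of the insulin receptor, had a log2 fold change of -0.16 (standard error 0.09).

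Among 7 transcription factors that act with Stat5 in hepatocytes, Onecut1 was the 1 gene with an unadjusted p under 0.05 (14.3% of the list, against 13.8% of all genes tested). Hnf4a was 540.1 ± 22.0 CPM in control and 495 ± 52.0 CPM in Smo-KO livers, and Foxo1 had a log2 fold change of 0.11. The median of the list was -0.0070.

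Liver genes whose levels depend on the male pulses of growth hormone formed a list of 17, and 14 of them were tested, while Hsd3b5, Ugt2b38 and Moxd1 had too few reads. Of the 14, 13 had a higher and 1 a lower mean in Smo-KO livers, with a median log2 fold change of 0.21, and 2 passed an unadjusted p of 0.05, against 6.7% of all genes tested in that direction. Without Smo-KO mouse 1 the number was 7, without Smo-KO mouse 2 or 3 or control mouse 3 or 4 it was 0, and without Smo-KO mouse 4 or in DESeq2's test it was 1. It was 3 without control mouse 1 or with the replicate block, and 4 with no filter on low counts. Leaving out 1 mouse turned the sign of Cyp4a12a, Elovl3, Slco1a1 and C6 among the higher genes, and of Mup21, the lower gene. Smo-KO mouse 1 had the lowest value of the 4 Smo-KO mice in 10 of the 14 genes, and the highest belonged to Smo-KO mouse 2 in 7 and to Smo-KO mouse 3 in 7. Cyp4a12b, an arachidonic acid hydroxylase gene, was 5.21, 6.49, 3.87 and 4.45 CPM in control and 3.501, 15.9, 19.7 and 4.79 CPM in Smo-KO mice, so Smo-KO mice 2 and 3 stood above the rest (log2 fold change 1.12, standard error 0.45). Cyp7b1, an oxysterol hydroxylase gene, was 119 ± 26.7 CPM in control and 149 ± 20.9 CPM in Smo-KO livers (log2 fold change 0.33, standard error 0.15). Mup20, which encodes a urinary pheromone protein of males, was 545, 1033, 822 and 673 CPM in control and 518, 1447, 1744 and 958 CPM in Smo-KO mice (log2 fold change 0.60, standard error 0.30, unadjusted p = 0.0641, edgeR adjusted p = 0.391). With the replicate block its unadjusted p was 0.0106 and its adjusted p 0.185 in edgeR's test. Selenbp2 had a log2 fold change of 0.53 (standard error 0.31). The Mup, Cyp2d and Cyp4a12 genes have near-identical copies between which reads could be split, so their levels are uncertain.

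Of 14 genes that are higher in female liver, 8 had too few reads to be tested, with at most 10 reads in any of these male livers. Of the 6 tested, 2 had a higher and 4 a lower mean in Smo-KO livers, and 1 passed an unadjusted p of 0.05 (16.7%, against 13.8% of all genes tested), with 3 without Smo-KO mouse 1. Atp6v0d2, a proton pump subunit gene, was 23.3, 21.3, 22.5 and 19.8 CPM in control and 28.1, 26.6, 33.0 and 27.6 CPM in Smo-KO mice, with no overlap between the groups (log2 fold change 0.41, standard error 0.10, edgeR adjusted p = 0.153). It is also known from macrophages and osteoclasts. The summed markers of Kupffer cells and other macrophages, 8 genes led by Clec4f, were 809.9 ± 99.6 CPM in control and 854 ± 109 CPM in Smo-KO livers (exact permutation test, two-sided p = 0.571). Of the 8, 3 had a lower mean in Smo-KO livers, and 1 had an unadjusted p under 0.05, against 13.8% of all genes tested. That gene was Trem2, a receptor of lipid-associated macrophages, named after its values were seen. Trem2 was 29.8, 36.1, 32.8 and 35.7 CPM in control and 43.9, 54.6, 66.4 and 61.01 CPM in Smo-KO mice, with no overlap. It had a log2 fold change of 0.75 (standard error 0.13, edgeR adjusted p = 0.0957, 0.0457 with the replicate block, DESeq2 adjusted p = 0.000169). The part of macrophages in the level of Atp6v0d2 was not tested. Cyp3a41a, Hao2 and Tox had log2 fold changes of -0.62, -0.43 and -0.24, with standard errors of 0.58, 0.47 and 0.26. With each mouse left out in turn, that of Cyp3a41a lay between -1.49 and -0.10 and that of Hao2 between -0.87 and -0.038.

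**Figure D4:**
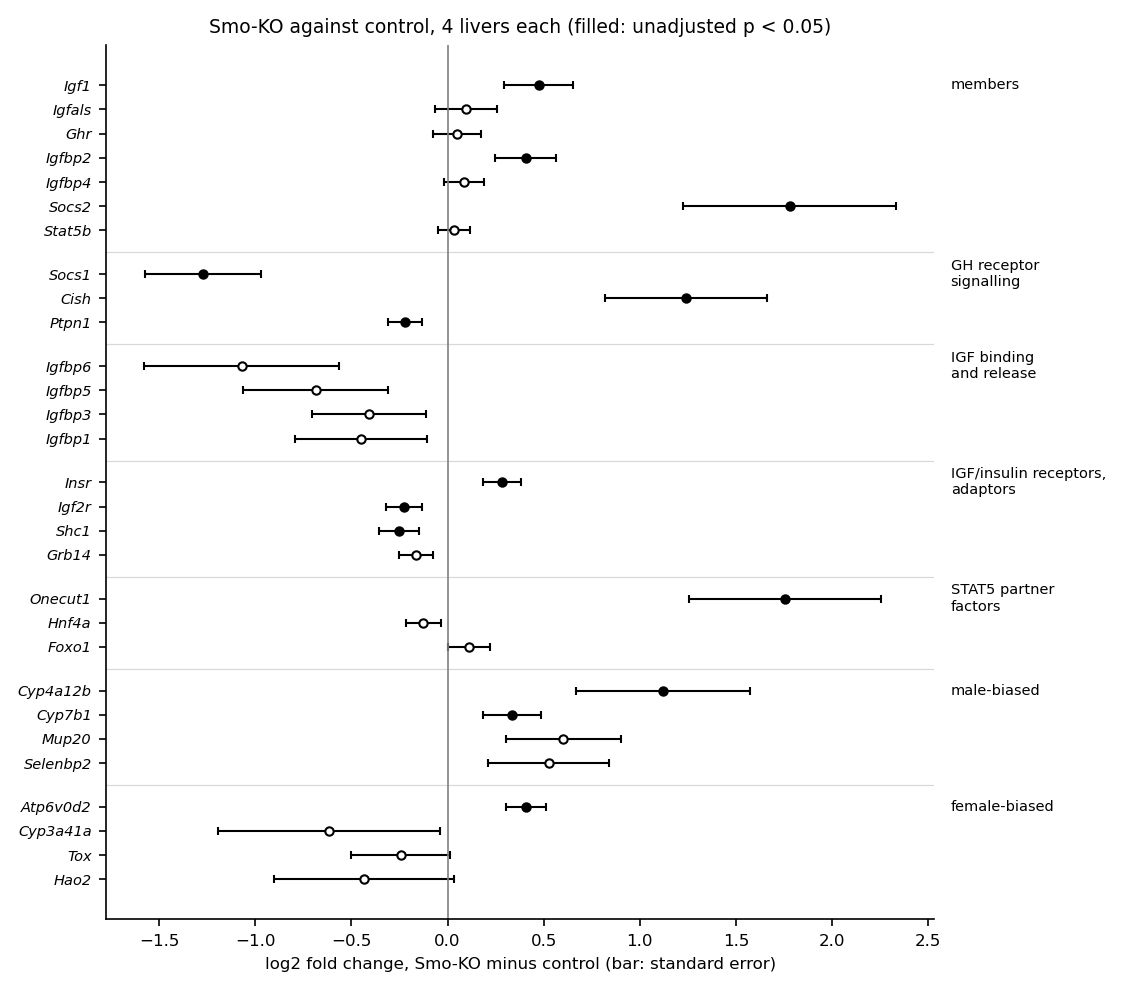
Log2 fold change between Smo-KO and control livers (horizontal axis, 4 livers each, bars are standard errors) of the 7 genes of the axis and of the genes named from the 6 lists. Filled points have an unadjusted p under 0.05 in edgeR's test. Socs2 (1.78), Onecut1 (1.76) and Cish (1.24) lie farthest to the right, and Socs1 (-1.27) and Igfbp6 (-1.07) lie farthest to the left.

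Side by side, the response genes set the Smo-KO mice apart from each other. Smo-KO mouse 3 was the highest of all 8 livers in 3 of the 7 genes of the axis (Igf1, Igfbp2 and Socs2) and also in Cish and Onecut1, while Smo-KO mouse 1 was the lowest Smo-KO mouse in 4 of the 7. Smo-KO mouse 1 also had the most Smo of its group, at 5.66 CPM, and the fewest reads on genes, 8203299, were those of Smo-KO mouse 3. Over the 8 livers Socs2 had a Pearson r of 0.89 with Onecut1, 0.78 with Igf1, 0.70 with Cish and -0.64 with Bcl6. With the group means removed these were 0.82, 0.64, 0.54 and -0.53, and the Spearman rho were 0.83, 0.64, 0.52 and -0.62. Without the 2 livers farthest from the median of Socs2, r was 0.13 with Igf1, so that this relation rested on those livers, and 0.84 with Onecut1. The pairs of Socs2 with genes other than Igf1 were chosen after their values were seen, and no test was made. Socs2 had r of 0.48 with Igfals (rho 0.26), which was -0.59 without the 2 farthest livers, and 0.68 with Cyp4a12b (rho 0.19), which was 0.30 without them. Igf1 had r of 0.27 with Ghr and 0.07 with Stat5b, and without the 2 livers farthest from the median of Igf1 these were 0.88 and 0.80, so that both depended on which livers were included.

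The genes whose levels went most closely with Igf1 over the 8 livers, among tested genes of at least 10 CPM on average, were Nrep, 2700062C07Rik and Eef1b2, with Pearson r of 0.99, 0.98 and 0.97. Nrep was 27.4, 9.53, 17.3 and 14.9 CPM in control and 17.5, 27.1, 67.5 and 36.2 CPM in Smo-KO mice, and like Igf1 it was lowest in control mouse 2 and highest in Smo-KO mouse 3. Its log2 fold change was 1.10 (standard error 0.37, edgeR adjusted p = 0.239). For Igfbp2 the closest were Pabpc4, Mier2 and Abcf1, each with r of 0.94. The highest values among so many genes are high by selection, and r is given as a description of 8 livers.

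**Figure D5:**
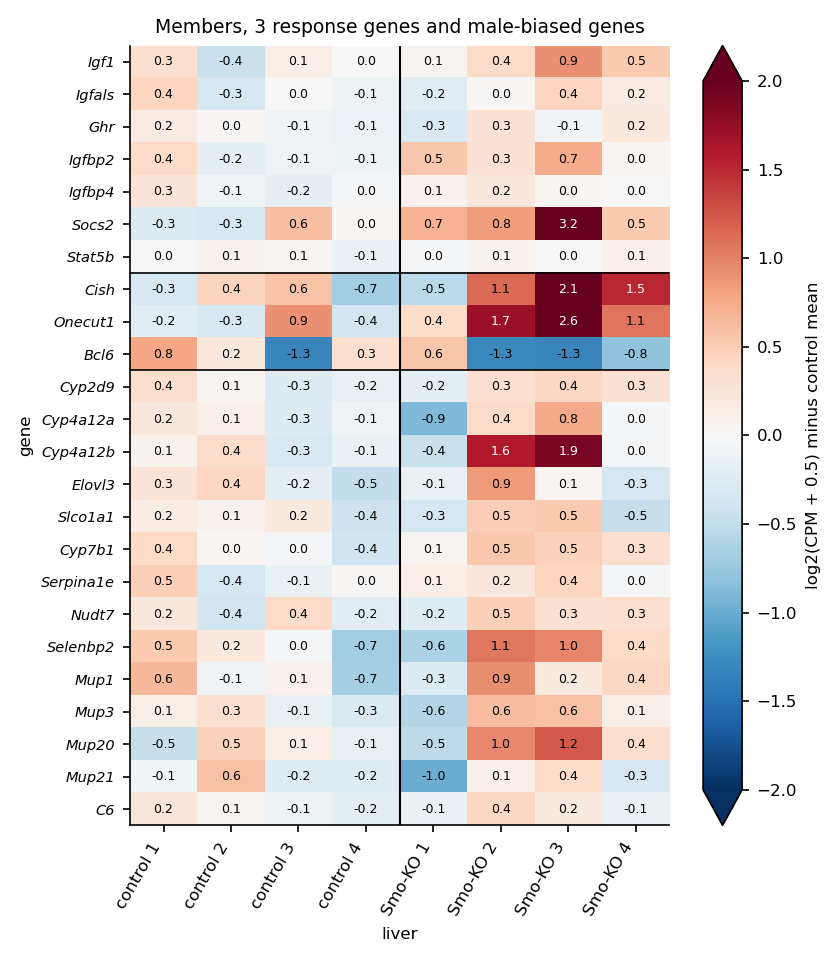
Difference of each liver from the control mean, in log2(CPM + 0.5), for the 7 genes of the axis (top), 3 response genes (middle) and the 14 tested male-biased genes (bottom), with livers in columns and each difference printed in its cell. The colour scale ends at 2 on either side, and Smo-KO mice 2 and 3 are red in most male-biased genes while Smo-KO mouse 1 is pale or blue.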

How the data were processed

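RNA-Seq of 8 livers was analysed from raw read counts per gene symbol, deposited by the authors as 1 file per liver. Submitters' processing notes name fastp, STAR 2.7.5, featureCounts 2.0.1 and GRCm38, whereas the files end with 5 non-gene entries of the kind htseq-count adds. The annotation and strand setting are not given in the sources used here. These entries were left out. Reads on no feature were 8.33% ± 0.743 of all in control and 9.23% ± 0.33 in Smo-KO livers (SD, n = 4, exact permutation test, two-sided p = 0.114), and ambiguous reads were 2.55% and 2.51%.

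Genes were filtered with filterByExpr, scaled by TMM and tested with the quasi-likelihood F test of edgeR 4.0.16 in R 4.3.3, genotype as the only term, with Benjamini-Hochberg adjustment over 12977 genes. DESeq2 1.42.0 was an alternative, beside other scalings and filters, a replicate block, and each mouse left out. Standard errors are implied by the F statistic, log2 CPM used a prior count of 2, and exact permutation tests used 70 assignments, whose smallest two-sided p is 0.0286. The p-values measure the spread between mice. Coordinates and exon lengths are from GENCODE M21.

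Libraries of 1 group differed from each other by a chi-square of at least 8.15 per degree of freedom. Deviations from the group means correlated between same-numbered control and Smo-KO mice, with r of 0.152, 0.214, 0.139 and 0.157 over 9848 genes. On this alone the numbers served as the block of an alternative fit. The main fit used no pairs, and no label says what mice of the same number share. Of the differently numbered mice, control 1 with Smo-KO 4 (r = 0.232) and control 2 with Smo-KO 3 (r = 0.205) correlated about as much, and the others had r of at most 0.00197. On simulated counts (12880 genes) the test recovered 90.2% of genes changed 2-fold and 50.3% of those changed 1.5-fold, with 7.31% false calls. The simulated counts varied independently from gene to gene, without differences between mice that many genes share. In the livers themselves the same test called 0 of 12977 genes, so the recovered shares need not hold for these data. Counting error is the only error that depth describes.

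The genes and lists were chosen with earlier results of these data known. Named were the 7 genes, Smo, the 4 genes with the smallest p in each of 6 lists (2 of them are not reported here), the 3 genes most like Igf1 and Igfbp2, the most abundant gene of each marker list, and others where stated.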

Additional observations from a re-analysis of the deposited data

Results flagged for a closer look

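Of 90 sets of 4 livers examined gene by gene, 3 held a liver distant from the rest of its group, and about 4.5 arise by chance. Socs2 was 71.5 CPM in Smo-KO mouse 3, against 11.0 to 13.7 CPM in the other Smo-KO mice. Onecut1 was 3.87 CPM in control mouse 3, against 1.28 to 1.47 CPM in the other control mice. Shc1 was 85.5 CPM in control mouse 4, against 101 to 103 CPM in the others.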

How the results depend on the processing

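No alternative gave any of the 7 genes an adjusted p under 0.05, with no value for Socs2 in DESeq2. The number of all genes under 0.05 was 0 in the main test, 167 with DESeq2, 61 with no filter and 8 with the replicate block, and ran from 0 to 78 with each mouse left out (78 without Smo-KO mouse 1, 5 without control mouse 1, 4 without Smo-KO mouse 3). Over the 6 lists 13 genes had an unadjusted p under 0.05, as had 1797 of all 12977 genes tested (13.8%). With each mouse left out between 7 and 22 had (22 without Smo-KO mouse 1, 7 without Smo-KO mouse 3, 8 without Smo-KO mouse 4). Over all genes tested the count moved the same way, to 2312, 1233 and 1322 without these 3 mice. With the replicate block it was 15 in the lists and 2115 over all genes. The block also brought Bcl6, Mup20 and Tat under an unadjusted p of 0.05 and Trem2 under an adjusted p of 0.05. It changed no other call among the genes of the axis, the lists and the markers. Leaving out 1 mouse turned the sign of Igfals (range -0.0232 to 0.26), Ghr (-0.0384 to 0.16), Stat5b (-0.0017 to 0.0643) and Tox (-0.39 to 0.0535), and among other genes given here that of Jak2 (-0.12 to 0.0147), Igf1r (-0.21 to 0.199), Igf2 (-0.762 to 0.0754) and Clec4f (-0.248 to 0.077). Among the male-biased genes it turned that of Cyp4a12a (-0.0949 to 0.40), Elovl3 (-0.208 to 0.35), Slco1a1 (-0.0668 to 0.25), Mup21 (-0.40 to 0.0612) and C6 (-0.0332 to 0.175). With the group means removed, r of Igf1 and Stat5b was -0.13. Smo had an adjusted p under 0.05 with DESeq2 (log2 fold change -0.87), with no filter (-0.88) and without Smo-KO mouse 1 (range over mice left out -0.997 to -0.811). The alternatives for the list genes were added after seeing the data. The causes were not tested. Genes near 3 reads, between 0.296 and 0.365 CPM, could not be judged at this depth.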

Other observations

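Among the hepatocyte markers, Tat, the tyrosine aminotransferase gene that glucocorticoids and glucagon induce, varied between mice. It was 1275, 732, 840.3 and 1074 CPM in the control mice and 919, 823, 242 and 561 CPM in the Smo-KO mice, lowest in the liver with the most Socs2 and Igf1 (log2 fold change -0.62, standard error 0.31, unadjusted p = 0.0671, edgeR adjusted p = 0.397, with 0.0142 and 0.202 under the replicate block). It was named after its values were seen. Summed markers of sinusoidal endothelium (6 genes led by Clec4g) were 188 ± 18.7 CPM in control and 164 ± 46.6 CPM in Smo-KO livers, and those of cholangiocytes (5 genes led by Spp1) were 148 ± 41.9 and 176 ± 45.4 CPM (SD, n = 4 each, exact permutation tests, two-sided p = 0.371 and 0.429). Of the 6 endothelial markers 1 had an unadjusted p under 0.05, against 13.8% of all genes tested. It was Pecam1, named after its values were seen, which was lower in Smo-KO livers (edgeR unadjusted p = 0.0256, adjusted p = 0.292). Skeletal muscle markers summed to at most 4.27 CPM in any liver, led by Mylpf, with Myh4 at 0 reads in all.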
